A study of Mus musculus with 8 samples.

Results

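The 48 mouse genes described here act in DNA replication and cell division, and were taken by gene symbol from a table of 24930 genes. By known function 17 of them serve DNA replication, 26 were grouped with mitosis, and 5 regulate the cycle as G1 cyclins or transcription factors. The mitosis group includes Ccna2, a cyclin of DNA replication as well as of mitosis. Their transcripts were measured by poly-A RNA sequencing in intestinal stromal cells with a low level of the receptor Pdgfra, sorted as GFP-positive cells. The 3 groups were stromal cells cultured with BcatGOF enteroids (BcatGOF coculture, 2 libraries), stromal cells cultured with wild-type enteroids (WT coculture, 3 libraries) and stromal cells cultured alone in Matrigel (mesenchyme only, 3 libraries). BcatGOF stands for a gain-of-function form of β-catenin, the effector of WNT signalling, and it was carried by the enteroids, which are epithelial organoids grown from duodenum, and not by the stromal cells. Per the labels, cocultures held 50000 stromal cells per droplet for 7 days in medium without EGF, R-SPONDIN1 and NOGGIN. The seeding number and culture time of the mesenchyme-only cells, the age of the mice, and the gene that drives GFP are not given. The series' design also names daily SB525334, a TGF-β receptor inhibitor, but no sample label mentions it.

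Cells license replication origins by loading the Mcm helicase, copy DNA with the help of the sliding clamp and a supply of deoxynucleotides, and then condense and separate their chromosomes. E2F factors drive many replication genes as cells leave G1. Mitosis genes peak later, when the factors Foxm1 and Mybl2 act at promoters that often hold a CHR element and CCAAT boxes. Stromal cells of the intact intestine divide slowly, while the epithelium beside them renews fast and expresses the same cycle genes.

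Values are FPKM, fragments scaled by transcript length and library size, so levels of different genes can be set side by side. Column totals were 438585 to 598384 FPKM, and relative depth read from the steps of low values was 0.796 to 1.0 of the deepest library. Pdgfra was at 52.4 to 134 FPKM in the 8 libraries, and the leukocyte gene Ptprc at 0 to 0.0508 FPKM. The summed FPKM of 27 epithelial markers was 46.7 and 171.4 in BcatGOF cocultures and 24.2, 17.4 and 166.5 in WT cocultures, against 10.2 to 13.0 in mesenchyme only. Of these 27 markers, 0 in BcatGOF coculture, 1 in WT coculture and 6 in mesenchyme only were listed at 0 in every library of the group. The most abundant were the keratins Krt19, highest at 46.8 FPKM in BcatGOF replicate 2, and Krt8, highest there at 38.5 FPKM. The 10 immune markers, led by Lyz2 and Cd14, summed to 52.2 and 133.2 FPKM in BcatGOF coculture, 24.9, 110.1 and 44.7 FPKM in WT coculture, and 59.7, 116.6 and 76.5 FPKM in mesenchyme only. Xist was at 27.2 to 34.9 FPKM in the replicate 2 library of each group and at most 0.174 FPKM in the others, and the Y-linked Eif2s3y was at 0 in the replicate 2 libraries and at 24.4 to 26.5 FPKM in the rest, so replicate number and sex go together. The numbers were taken to pair the libraries, from checks given among the processing steps.

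The members ranged from 0.518 FPKM (Cenpf, a kinetochore protein) to 55.3 FPKM (Pcna, the sliding clamp) as means over the 8 libraries. The median mean level was 10.1 FPKM for the replication members and 5.33 FPKM for the mitosis members. Together the 48 genes held 0.0888% and 0.0417% of all FPKM in the BcatGOF cocultures, 0.105%, 0.0683% and 0.0849% in the WT cocultures, and 0.09%, 0.0948% and 0.0812% in mesenchyme only. BcatGOF replicate 2 thus had the smallest share. It was the lowest of the 8 libraries for 43 of 48 members, 25 of 26 of the mitosis members among them, where 22.9% of all tested genes were lowest there.

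The median level of the mitosis members was 4.13 and 1.60 FPKM in BcatGOF coculture, 7.10, 5.33 and 5.32 FPKM in WT coculture, and 4.13, 8.45 and 5.69 FPKM in mesenchyme only. The median level of the replication members was 9.54 and 5.09 FPKM in BcatGOF coculture, 12.0, 9.79 and 10.4 FPKM in WT coculture, and 9.37, 11.7 and 7.21 FPKM in mesenchyme only. BcatGOF replicate 1 thus lay at or near the level of mesenchyme only replicate 1 on both measures, while replicate 2 lay below the other 7 libraries. At the upper end, mesenchyme only replicate 2 was the highest library for 23 members, 18 of them mitosis members (13.7% of all tested genes), and WT replicate 1 for 19, 10 of them replication members (8.21%). The stromal markers averaged 8.99 and 8.16 on the log2(FPKM + 1) scale in BcatGOF coculture, 9.01 to 9.48 in WT coculture and 8.75 to 9.38 in mesenchyme only. On that scale replicate 2 of BcatGOF was also the lowest for them. By summed FPKM the lowest was mesenchyme only replicate 1, at 8935 FPKM, with 8960 FPKM in BcatGOF replicate 2. Of the most abundant stromal markers, Col3a1 was at 758 FPKM in BcatGOF replicate 2 and 1830 to 4890 FPKM in the others. Dcn was at 5670 FPKM there and 2720 to 3440 FPKM in the others. WT replicate 3 carried an epithelial sum like that of BcatGOF replicate 2 (166.5 and 171.4 FPKM) and had a mitosis median of 5.32 FPKM. The part of epithelial transcripts in the values of the members was not tested. In bulk libraries, fewer dividing cells and less of the members' transcripts per cell cannot be told apart.

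**Figure D1:**
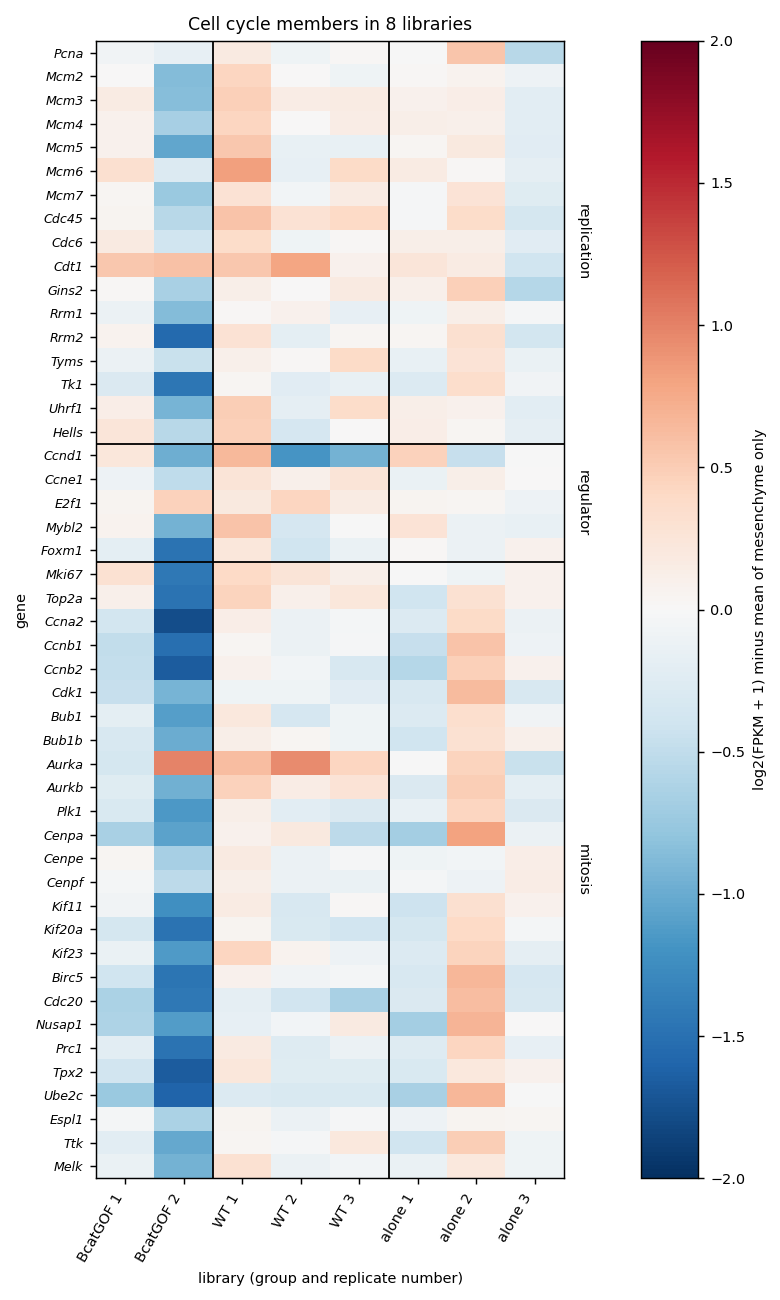
Heat map of the 48 members (rows, grouped as replication, regulator and mitosis) in the 8 libraries (columns, BcatGOF coculture, WT coculture, then mesenchyme only); colour is log2(FPKM + 1) minus the mean of the 3 mesenchyme-only libraries. The column of BcatGOF replicate 2 is blue for nearly every mitosis member apart from Aurka, and that of BcatGOF replicate 1 is near white for the replication members.

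Promoters of replication and mitosis members held different motifs. RefSeq windows of 300 bases on GRCm38.p6, from 250 before to 50 after a gene's start, were found for 40 of 48 members by symbol (43 windows). The E2F motif was searched as TTTCCCGC, TTTCGCGC, TTTGCCGC or TTTGGCGC, the CHR element as TTTGAA or TTCGAA, and the CCAAT box as CCAAT, each on both strands. E2F matches on opposite strands can overlap. The 17 replication windows belong to 15 genes and the 23 mitosis windows to 22. Mcm7, Uhrf1 and Prc1 have more than 1 window, and those of Prc1 overlap and hold the same CHR and CCAAT matches. An E2F match lay in 8 of 17 replication windows (47.1%) and 1 of 23 mitosis windows (4.35%), against 2.26% of all 32851 windows. A CHR match lay in 3 of 17 replication windows (17.6%) and 18 of 23 mitosis windows (78.3%), against 19.2% of all windows. CCAAT lay in 70.6% of replication windows and 87.0% of mitosis windows, against 37.4% of all, and the 3 regulator windows (Ccne1, E2f1 and Mybl2) held none of the motifs. These counts describe letters in a window and say nothing of binding.

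The 250 bases upstream of 6 genes follow, picked after the matches were known, because they show the E2F kind (Mcm5, Mcm6), the CHR kind (Cdc20, Mki67, Ube2c) and the promoter of Aurka, the mitosis member that departs most from the others. Capitals mark all matches to the motifs above, 5′ to 3′ on the gene's strand. They stand at chr8:75109259-75109508 (plus) for Mcm5, chr1:128359706-128359955 (minus) for Mcm6, chr4:118437344-118437593 (minus) for Cdc20, chr7:135716380-135716629 (minus) for Mki67, chr2:164769679-164769928 (plus) for Ube2c and chr2:172370571-172370820 (minus) for Aurka.
Mcm5: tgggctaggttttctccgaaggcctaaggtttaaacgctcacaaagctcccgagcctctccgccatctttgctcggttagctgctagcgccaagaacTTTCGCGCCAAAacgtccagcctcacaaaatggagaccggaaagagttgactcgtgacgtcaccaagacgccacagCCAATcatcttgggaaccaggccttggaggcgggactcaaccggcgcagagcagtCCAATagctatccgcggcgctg
Mcm6: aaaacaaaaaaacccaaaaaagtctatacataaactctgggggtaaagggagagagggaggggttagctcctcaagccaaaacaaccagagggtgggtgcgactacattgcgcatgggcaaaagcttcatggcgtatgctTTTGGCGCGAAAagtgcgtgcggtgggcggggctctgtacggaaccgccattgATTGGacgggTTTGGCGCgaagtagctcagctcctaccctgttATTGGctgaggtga
Cdc20: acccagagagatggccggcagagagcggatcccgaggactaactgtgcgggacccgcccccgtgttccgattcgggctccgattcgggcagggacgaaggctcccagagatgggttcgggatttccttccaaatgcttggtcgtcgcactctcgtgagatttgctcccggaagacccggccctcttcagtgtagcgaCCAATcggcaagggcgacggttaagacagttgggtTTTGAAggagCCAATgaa
Mki67: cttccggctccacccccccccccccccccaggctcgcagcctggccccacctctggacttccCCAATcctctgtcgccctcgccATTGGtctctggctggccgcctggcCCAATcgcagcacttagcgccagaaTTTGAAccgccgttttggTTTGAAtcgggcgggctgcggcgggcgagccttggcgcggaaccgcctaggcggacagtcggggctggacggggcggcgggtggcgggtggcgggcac
Ube2c: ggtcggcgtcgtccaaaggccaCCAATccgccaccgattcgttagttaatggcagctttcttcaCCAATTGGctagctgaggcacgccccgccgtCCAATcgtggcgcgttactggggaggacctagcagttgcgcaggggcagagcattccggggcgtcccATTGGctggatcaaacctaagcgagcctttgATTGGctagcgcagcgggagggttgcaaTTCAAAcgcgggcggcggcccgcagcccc
Aurka: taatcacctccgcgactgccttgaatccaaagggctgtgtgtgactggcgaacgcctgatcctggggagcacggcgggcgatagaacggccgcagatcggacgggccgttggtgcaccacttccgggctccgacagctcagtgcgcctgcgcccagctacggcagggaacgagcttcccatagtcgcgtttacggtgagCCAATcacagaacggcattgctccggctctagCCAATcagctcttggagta
In Mcm5 and Mcm6 the E2F matches form 1 run in which a match on each strand overlaps the other, 153 and 110 bases before the start at its first base, and Mcm6 has another at 47. In Cdc20 and Ube2c the CHR match lies 18 and 29 bases before the start, with a CCAAT match upstream of it at 53 and 57. Mki67 has CHR matches at 116 and 98 bases before the start, downstream of 3 CCAAT matches. Aurka has CCAAT matches at 51 and 19, no E2F match, and its CHR match lies after the start, at base 33. This layout is not particular to Aurka, since Bub1, Cenpa, Cenpf, Kif23, Plk1 and Ttk also have CHR matches only after the start and no E2F match.

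Stromal cells beside BcatGOF enteroids were set against those grown alone, which asks whether enteroids with active WNT signalling alter the cycle genes of the stroma. Mitosis members were lower in 24 of 25 tested cases, with a median log2 fold change of -0.70, and replication members in 15 of 17, with a median of -0.31, while the median of all 12927 tested genes was 0.01. Fold changes are on the log2(FPKM + 1) scale, which understates low genes. In limma, with Benjamini-Hochberg adjustment over all tested genes, 0 of 47 members passed 0.05 (1 gene in all, 0.00774%), and the lowest adjusted p of a member was 0.894. At an unadjusted limma p under 0.05, 10 mitosis members and 1 replication member, Tk1, were lower, against 2.62% of all tested genes. With the replicate block 5 mitosis members, 0 replication members and 2 regulators were lower at that level, against 3.67%. Cdt1 was the only member higher at that level with the block, against 539 of 12927 tested genes, and none was without it. Both BcatGOF libraries lay below the 3 mesenchyme-only libraries for 8 of 25 mitosis members, 2 of 17 replication members and 1 regulator, where 7.82% of all tested genes did so. Cenpf was not tested because it reached 1 FPKM in no library. Of the members, 9 share at least 5% of their annotated exonic bases with a gene on the opposite strand, and whether counting used strand is not given. The genes so touched among those given in full are Ccna2, Ccnd1 and Ube2c, and Pcna, Ccnb1 and Ccnb2 have annotated pseudogenes, so their values may hold reads of other loci.

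Mki67, the antigen used to mark cycling cells, was at 3.91 and 0.478 FPKM in BcatGOF coculture, 4.25, 3.77 and 3.31 FPKM in WT coculture, and 2.97, 2.74 and 3.22 FPKM in mesenchyme only. The BcatGOF libraries lay on either side of the mesenchyme-only range, and the log2 fold change was -0.56 (SE 0.43). Top2a, which untangles DNA before chromosomes part, was at 8.57 and 2.22 FPKM in BcatGOF coculture, 11.2, 8.56 and 9.50 FPKM in WT coculture, and 5.81, 10.0 and 8.54 FPKM in mesenchyme only. Here too the groups overlapped, with replicate 2 of BcatGOF alone at the bottom (log2 fold change -0.69, SE 0.43).

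The cyclins that start and drive mitosis were lower in both BcatGOF libraries than in nearly all others. Ccna2 was at 6.35 and 1.77 FPKM in BcatGOF coculture, 9.42, 7.72 and 8.24 FPKM in WT coculture, and 6.85, 11.4 and 7.77 FPKM in mesenchyme only. Its groups did not overlap, and its log2 fold change over mesenchyme only was -1.08 (SE 0.39, adjusted p = 0.894 in limma). Ccnb1 was at 3.92 and 1.43 FPKM in BcatGOF coculture, 6.11, 5.37 and 5.78 FPKM in WT coculture, and 4.05, 9.24 and 5.43 FPKM in mesenchyme only. Its BcatGOF libraries lay below both other groups, replicate 1 by a small margin (log2 fold change -1.0, SE 0.37). Ccnb2 was at 5.94 and 2.03 FPKM in BcatGOF coculture, 9.27, 8.29 and 6.68 FPKM in WT coculture, and 5.52, 12.4 and 9.24 FPKM in mesenchyme only. It overlapped mesenchyme only, whose replicate 1 was under BcatGOF replicate 1 (log2 fold change -1.07, SE 0.40). Cdk1, the kinase these cyclins activate, was at 6.08 and 4.11 FPKM in BcatGOF coculture, 8.23, 8.24 and 7.32 FPKM in WT coculture, and 6.84, 14.1 and 6.86 FPKM in mesenchyme only. Its groups did not overlap either, and its log2 fold change was -0.70 (SE 0.31).

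Ube2c, which loads ubiquitin for the anaphase-promoting complex and was the most abundant mitosis member, was at 16.2 and 8.46 FPKM in BcatGOF coculture, 22.9, 22.3 and 22.3 FPKM in WT coculture, and 17.3, 44.5 and 27.7 FPKM in mesenchyme only. The BcatGOF libraries were the lowest, and its log2 fold change of -1.17 (SE 0.38, adjusted p = 0.894 in limma) was the lowest of the mitosis members. Aurka, a kinase of spindle assembly and the next most abundant mitosis member, went the other way. It was at 6.37 and 17.8 FPKM in BcatGOF coculture, 13.4, 17.2 and 11.7 FPKM in WT coculture, and 8.43, 11.8 and 5.95 FPKM in mesenchyme only. BcatGOF replicate 2 had the lowest value of the 8 libraries for every other mitosis member. Of all tested genes 22.7% were highest in that library. Aurka was among them, at a value just above that of WT replicate 2 (log2 fold change 0.32, SE 0.41). Its relative Aurkb, the kinase of the chromosomal passenger complex, was at 3.55 and 1.78 FPKM in BcatGOF coculture against 3.39, 6.60 and 3.70 FPKM in mesenchyme only, and Tpx2, which activates Aurka on the spindle, was at 4.71 and 1.34 against 5.05, 7.67 and 6.90 FPKM. Both were named after their values were seen. The other mitosis members, with roles in the kinetochore, checkpoint, spindle and cytokinesis, had log2 fold changes of BcatGOF coculture over mesenchyme only between -1.03 (Cdc20) and -0.31 (Cenpe).

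Replication members differed among themselves. Pcna was at 51.8 and 48.9 FPKM in BcatGOF coculture, 62.1, 51.4 and 55.6 FPKM in WT coculture, and 54.7, 80.8 and 37.0 FPKM in mesenchyme only. Its BcatGOF values lay inside the range of mesenchyme only, and its log2 fold change was -0.12 (SE 0.30). Mcm2, a subunit of the replicative helicase, was at 11.1 and 5.60 FPKM in BcatGOF coculture, 15.2, 11.1 and 10.4 FPKM in WT coculture, and 11.3, 11.7 and 10.2 FPKM in mesenchyme only. Replicate 1 was level with mesenchyme only and replicate 2 was below it (log2 fold change -0.43, SE 0.27). Mcm3, Mcm4, Mcm5 and Mcm7, subunits of the same ring, had log2 fold changes of -0.34, -0.29, -0.47 and -0.36, and Mcm6 was at 0.03. Cdt1, which loads that helicase, had 11.7 and 12.2 FPKM in BcatGOF coculture, 11.7, 14.1 and 8.32 FPKM in WT coculture, and 9.37, 8.78 and 5.61 FPKM in mesenchyme only. Both BcatGOF values were above mesenchyme only, a separation that 8.49% of all tested genes showed, and the log2 fold change was 0.56 (SE 0.26, adjusted p = 0.896 in limma).

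Tk1, Rrm2 and Rrm1, enzymes that supply deoxynucleotides, had the lowest log2 fold changes of the replication members over mesenchyme only, but the order of Rrm1 and Mcm5 (-0.47) turned with the replicate block (Rrm1 at -0.54, Mcm5 at -0.59) and with pseudocounts of 0.1 (-0.52 and -0.59) and 0.5 (-0.51 and -0.53). Rrm1, the large subunit of ribonucleotide reductase, was at 19.4 and 11.1 FPKM in BcatGOF coculture, 21.6, 22.6 and 18.7 FPKM in WT coculture, and 19.8, 23.0 and 20.8 FPKM in mesenchyme only. It was below mesenchyme only in both libraries, in replicate 1 by little (log2 fold change -0.49, SE 0.23). Rrm2, the small subunit made in S phase, was at 12.5 and 3.39 FPKM in BcatGOF coculture, 14.7, 10.3 and 12.2 FPKM in WT coculture, and 12.3, 15.1 and 9.02 FPKM in mesenchyme only. Only replicate 2 stood apart (log2 fold change -0.75, SE 0.44). Tk1, the salvage kinase for thymidine, was at 9.37 and 3.65 FPKM in BcatGOF coculture, 12.0, 9.79 and 10.4 FPKM in WT coculture, and 9.46, 15.1 and 11.1 FPKM in mesenchyme only. Its groups did not overlap, with replicate 1 just under the lowest mesenchyme-only library (log2 fold change -0.87, SE 0.34, adjusted p = 0.894 in limma). The other replication members, which load the helicase, make thymidylate or bind newly copied chromatin, had log2 fold changes between -0.40 (Uhrf1) and -0.11 (Cdc6).

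The 5 regulators differed in direction. Foxm1, the factor of mitosis genes, was at 5.87 and 1.80 FPKM in BcatGOF coculture, 8.11, 4.95 and 6.11 FPKM in WT coculture, and 6.94, 6.24 and 7.34 FPKM in mesenchyme only. Both BcatGOF values were under mesenchyme only (log2 fold change -0.84, SE 0.36). Mybl2, which acts with it, was at 2.32 and 0.654 FPKM in BcatGOF coculture, 3.71, 1.51 and 2.15 FPKM in WT coculture, and 2.84, 1.92 and 1.85 FPKM in mesenchyme only. E2f1, the factor of replication genes, was at 14.9 and 20.0 FPKM in BcatGOF coculture, 16.5, 19.6 and 16.0 FPKM in WT coculture, and 14.9, 14.7 and 13.2 FPKM in mesenchyme only. E2f1 was thus highest, just above WT replicate 2, in the library where Foxm1 and Mybl2 were lowest (log2 fold changes 0.26, SE 0.17 for E2f1 and -0.44, SE 0.37 for Mybl2). Of all tested genes 22.7% were highest in that library and 22.9% lowest. Ccnd1, a G1 cyclin and a known WNT target in epithelium, was at 24.4 and 9.97 FPKM in BcatGOF coculture, 32.9, 8.59 and 10.3 FPKM in WT coculture, and 29.0, 14.8 and 20.5 FPKM in mesenchyme only. It varied more between libraries of a group than between groups (log2 fold change -0.38, SE 0.59). Ccne1, which opens S phase, was at 10.9 and 8.03 FPKM in BcatGOF coculture, 14.3, 12.8 and 14.3 FPKM in WT coculture, and 10.7, 12.9 and 11.9 FPKM in mesenchyme only, and had a log2 fold change of -0.30 (SE 0.17).

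**Figure D2:**
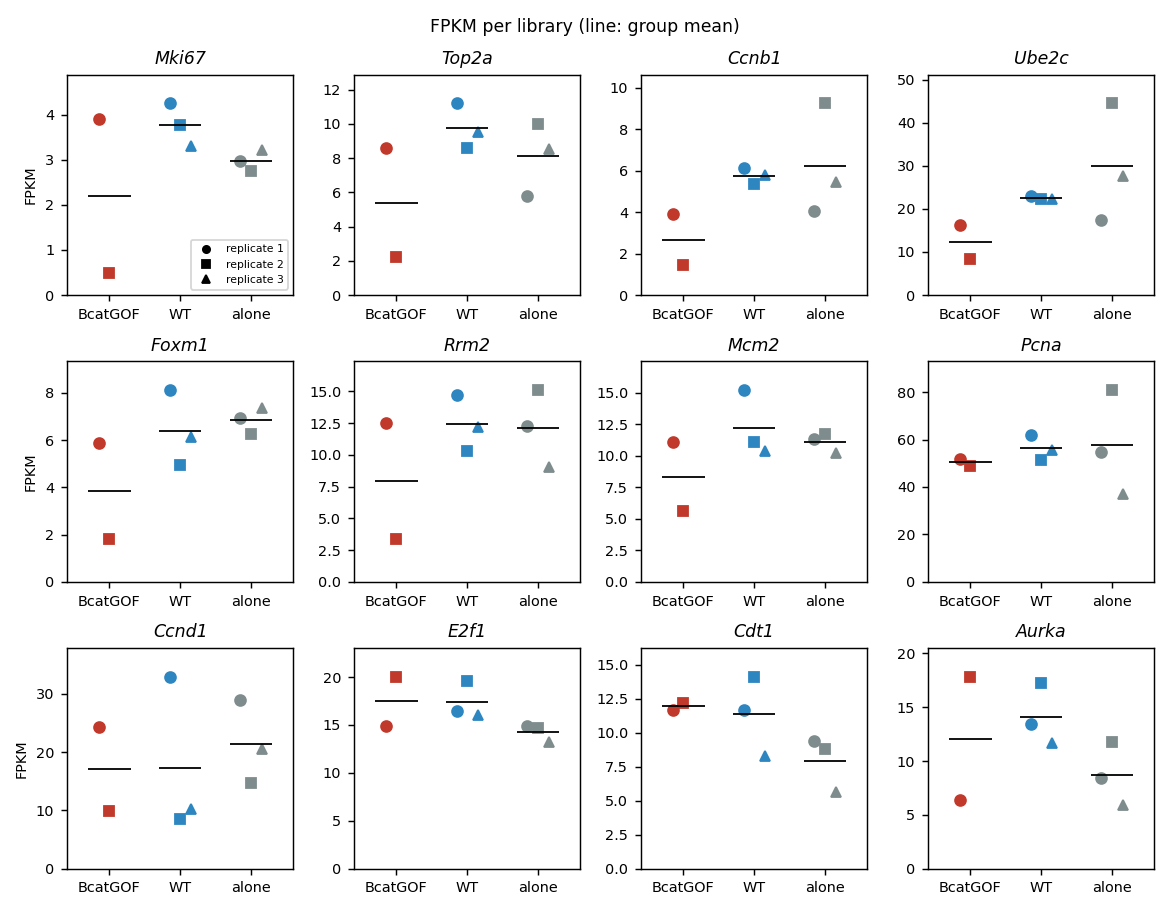
FPKM (vertical axis, linear from 0) of 12 members in BcatGOF coculture (2 libraries), WT coculture (3) and mesenchyme only (3); points are libraries, their shape is the replicate number, and the line is the group mean. The BcatGOF square, replicate 2, is the lowest point for Mki67 at 0.478 FPKM and the highest for Aurka at 17.8 FPKM.

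The 2 BcatGOF libraries differed from each other. Taken over the mesenchyme-only library with that number, the median ratio of FPKM in pair 1 was 1.04 for the mitosis members and 1.03 for the replication members. In pair 2 it was 0.197 for the mitosis members and 0.473 for the replication members, and 25 of 26 mitosis members but 11 of 17 replication members were under 0.5. The lowest ratio of pair 2 was that of the spindle checkpoint kinase Ttk, at 0.114, and the highest that of Aurka, at 1.5. On the log2(FPKM + 1) scale the mitosis median was 0.63 below the replication median in pair 2 (-1.58 and -0.95) and 0.01 above it in pair 1 (0.05 and 0.04). Only 8 of 25 mitosis members and 6 of 17 replication members were lower in both pairs, where 28.5% of all tested genes were. The reference of pair 2, mesenchyme only replicate 2, was itself the highest of the 8 libraries for 18 mitosis and 5 replication members. Over that reference, the median ratio of FPKM in WT replicate 2 was 0.652 for mitosis and 0.80 for replication members. Without BcatGOF replicate 2, the medians of BcatGOF coculture over mesenchyme only were -0.33 for mitosis members and 0.06 for replication members. Without BcatGOF replicate 1, with the lone library assumed to vary like the other groups, they were -1.15 and -0.67. In that fit 93 of 12814 genes were lower (0.726%) and 105 higher (0.819%) at an adjusted p under 0.05 in limma, and 4 of 47 members were among those lower: Mki67 (-1.43, adjusted p = 0.0375), Ccna2 (-1.78, 0.0383), Tpx2 (-1.67, 0.0491) and Foxm1 (-1.48, 0.0499). The stromal mean and the S100b level (a glial marker, 8.82 FPKM in that library and at most 1.44 FPKM in the others, while the glial markers Sox10 and Gfap were at most at 0.0432 and 0.0861 FPKM in any of the 8) also set BcatGOF replicate 2 apart. The epithelial sum was as high in WT replicate 3. The part of these markers in the values was not tested.

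**Figure D3:**
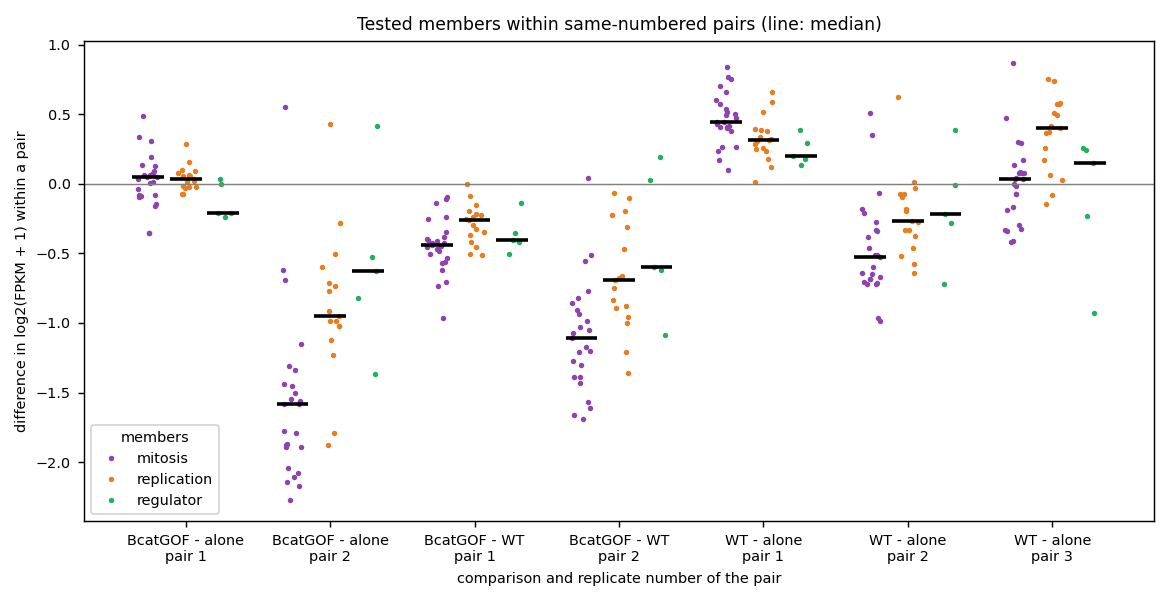
Difference in log2(FPKM + 1) within libraries of the same replicate number (vertical axis) for each comparison and pair (horizontal axis); points are tested members, coloured by side, and lines are medians. Mitosis members centre at -1.58 in pair 2 of BcatGOF coculture minus mesenchyme only and at 0.05 in pair 1.

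BcatGOF coculture was next set against WT coculture, in which enteroids are present on both sides. It shares the BcatGOF libraries with the comparison above. Mitosis members were lower in 25 of 25 tested cases, with a median log2 fold change of -0.77, and replication members in 16 of 17, with a median of -0.49, while the median of all tested genes was 0.01. In limma 0 of 12927 genes passed over all genes (0.0%). At an unadjusted limma p under 0.05, 7 mitosis members, 1 replication member and 1 regulator were lower, against 1.77% of all tested genes. With the replicate block these counts were 1, 4 and 3, against 2.85%. Both BcatGOF libraries lay below the 3 WT libraries for 15 of 25 mitosis members, 3 of 17 replication members and Ccne1, where 7.64% of all tested genes did so.

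All 17 replication members and 24 of 25 mitosis members were lower than in WT coculture in both pairs, where 24.5% of all tested genes were. The median ratio of FPKM for the mitosis members was 0.693 in pair 1 and 0.315 in pair 2, and for the replication members 0.803 and 0.591. The mitosis median was below the replication median by 0.18 in pair 1 and by 0.42 in pair 2 on the log2(FPKM + 1) scale. Ccna2 was at ratios of 0.674 and 0.229 (log2 fold change -1.07, SE 0.39) and Ccnb1 at 0.642 and 0.266 (-0.96, SE 0.37). Aurka, the mitosis member outside that count, was at ratios of 0.477 and 1.03. Of the 5 regulators 3 were lower in both pairs, while Ccnd1 was at ratios of 0.741 and 1.16 and E2f1 at 0.905 and 1.02. Pcna was closer to WT coculture, at 0.835 and 0.952, and Cdt1 at 0.998 and 0.862. WT replicate 1, the reference of pair 1, was the library in which 19 members were highest. Without BcatGOF replicate 2 the medians were -0.28 for mitosis members and -0.10 for replication members, with 12 of 17 replication members lower, and without BcatGOF replicate 1 they were -1.18 and -0.87.

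WT coculture against mesenchyme only asks what enteroids without the mutation do, and it gave small differences of mixed sign. Replication members were higher in 15 of 17 cases, with a median log2 fold change of 0.12. Mitosis members were higher in 9 and lower in 16 of 25, with a median of -0.03 that was 0.01 under quantile normalization, and the median of all tested genes was 0.02. In limma 0 of 47 members passed over all genes (1 gene in all, 0.00774%, and 2 with the replicate block, 0.0155%), and 0 of 47 had an unadjusted limma p under 0.05, where 2.61% of all tested genes were lower and 2.29% higher at that level. With the replicate block Cdt1 (log2 fold change 0.47, adjusted p = 0.277 in limma) and Aurka (0.66, adjusted p = 0.42 in limma) were higher at that unadjusted level and no member was lower, against 5.04% of all tested genes higher and 5.28% lower. All 3 WT libraries lay above the 3 mesenchyme-only libraries for Mcm3, E2f1 and Mki67, a separation that 6.35% of all tested genes showed. Mcm3 was at 12.0, 9.37 and 9.48 FPKM in WT coculture against 8.91, 9.28 and 7.08 FPKM in mesenchyme only. The log2 fold changes were 0.26 for each of Mcm3 (SE 0.26), E2f1 (SE 0.16) and Mki67 (SE 0.39).

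The pairs of WT coculture with mesenchyme only did not run the same way. Over the same-numbered mesenchyme-only library, the median ratio of FPKM for the mitosis members was 1.52, 0.652 and 1.01 in pairs 1, 2 and 3. For the replication members it was 1.27, 0.80 and 1.36. Every member was higher in pair 1, and most were lower in pair 2, where mesenchyme only replicate 2 has the highest mitosis median of the 8 libraries. Pair 3 was split by side, with 15 of 17 replication members higher and 13 of 25 mitosis members higher. Of the members, 2 replication genes, 2 mitosis genes and 1 regulator were higher in all 3 pairs, against 20.6% of all tested genes. Cdt1 and Aurka were among these, at ratios of 1.25, 1.61 and 1.48 for Cdt1 and 1.58, 1.46 and 1.97 for Aurka.

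Further genes of the cycle, chosen by function, were read the same way, and none passed over all genes in limma in any comparison. Of 38 other replication genes (polymerases, primases, clamp loaders and licensing factors), 26 were lower in BcatGOF coculture than in mesenchyme only, with a median log2 fold change of -0.169, and 29 were lower than in WT coculture (median -0.175). Their most abundant members were Gins4, a helicase subunit, at 24.9 and 20.5 FPKM in BcatGOF coculture against 30.1, 41.3 and 23.7 FPKM in mesenchyme only, and Rpa1, which coats single-stranded DNA, at a log2 fold change of 0.06 (SE 0.24). Of 56 other mitosis genes tested, of 60 listed, 53 were lower than in mesenchyme only (median -0.52) and 56 lower than in WT coculture (median -0.49). In pair 2 with WT coculture Bub3, Cks2, Pttg1 and Cenpm were higher. The other 52 of these mitosis genes were lower in both pairs, where 24.5% of all tested genes were. Stmn1, a microtubule-destabilizing protein and their most abundant member, was at 52.5 and 14.7 FPKM in BcatGOF coculture, 76.0, 77.6 and 55.6 FPKM in WT coculture, and 68.1, 106 and 67.6 FPKM in mesenchyme only. Its BcatGOF values were below both other groups (log2 fold change -1.46, SE 0.48 over mesenchyme only). Of all tested genes 7.82% lay below mesenchyme only in that way and 7.64% below WT coculture. Cks1b, a Cdk-binding subunit, was at -0.38 (SE 0.29). In pair 2 of BcatGOF coculture and mesenchyme only the medians of these lists were -1.08 for mitosis and -0.48 for replication, and in pair 1 they were -0.01 and 0.01.

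The G1 kinases, pocket proteins and E2F family were nearer to 0, with 14 of 23 tested lower in BcatGOF coculture than in mesenchyme only and a median of -0.07. Cdk4 was at 258 and 210 FPKM in BcatGOF coculture, 296, 302 and 263 FPKM in WT coculture, and 278, 330 and 226 FPKM in mesenchyme only, and Ccnd3, its cyclin partner, had a log2 fold change of -0.19 (SE 0.25) over mesenchyme only. The 8 CDK inhibitor genes were split, 4 higher and 4 lower. Both BcatGOF libraries lay below the 3 mesenchyme-only libraries for Cdkn1c, Cdkn2c and Cdkn3, where 7.82% of all tested genes did so. Both lay above them for Cdkn1a, a separation that 8.49% of all tested genes showed. Cdkn1c, which encodes the inhibitor p57, was at 10.4 and 5.44 FPKM in BcatGOF coculture, 7.85, 17.7 and 47.6 FPKM in WT coculture, and 11.5, 31.5 and 67.7 FPKM in mesenchyme only (log2 fold change -1.82, SE 0.84, adjusted p = 0.894 in limma). Cdkn3, a phosphatase that acts on CDKs, had a log2 fold change of -1.29 (SE 0.40, adjusted p = 0.894 in limma) over mesenchyme only. At an unadjusted limma p under 0.05, Cdkn2c and Cdkn3 were lower, against 2.62% of all tested genes. None of the 8 was higher at that level, against 372 of 12927 tested genes. Cdkn1a, which encodes the inhibitor p21, was at 285 and 531 FPKM in BcatGOF coculture, 316, 334 and 180 FPKM in WT coculture, and 263, 263 and 149 FPKM in mesenchyme only (log2 fold change 0.83, SE 0.41, adjusted p = 0.896 in limma). Cdkn2a was at 55.9 and 61.0 FPKM in BcatGOF coculture against 61.3, 58.9 and 24.6 FPKM in mesenchyme only. The immediate early genes that cell dissociation can induce summed to 1513 and 3236 FPKM in BcatGOF coculture, 1542, 2567 and 1745 FPKM in WT coculture and 1707, 3551 and 5694 FPKM in mesenchyme only. Of the 24, 21 were lower in BcatGOF coculture than in mesenchyme only (median log2 fold change -0.65). In WT coculture 22 were lower (median -0.66). In both BcatGOF pairs 16 were lower, against 28.5% of all tested genes. At an unadjusted limma p under 0.05, 4 were lower and 1 higher in BcatGOF coculture, against 339 and 372 of 12927 tested genes. At that level 6 were lower and 0 higher in WT coculture, against 2.61% and 2.29% of all tested genes. Of their most abundant members, Junb was at 242 and 426 FPKM in BcatGOF coculture against 244, 622 and 651 FPKM in mesenchyme only, and Ier3, 1 of the 3 that were higher, at 259 and 1250 FPKM in BcatGOF coculture against 172, 364 and 208 FPKM in mesenchyme only. Their part in these results was not tested.

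The authors' deposited table, a comparison of BcatGOF coculture over mesenchyme only, holds 2184 genes with an adjusted p of at most 0.015. The authors' deposited table lists 38 of the 48 members. Lower in BcatGOF coculture are 37 of these, and Aurka is higher in the authors' deposited table, at a log2 fold change of 1.17 (SE 0.33). Of all genes tested here, 9.05% are listed as lower in the authors' deposited table and 6.07% as higher. All 26 mitosis members, 9 of 17 replication members and 3 of 5 regulators are in the authors' deposited table, with median log2 fold changes of -2.19, -1.25 and -1.55. Pcna, Mcm6, Cdc45, Cdc6, Cdt1, Gins2, Tyms, Hells, Ccnd1 and E2f1 were the members it did not list. Mki67 stands at -2.99 (SE 0.30) and Foxm1 at -2.21 (SE 0.32) in the authors' deposited table.

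Set beside the FPKM values, the fold changes in the authors' deposited table lie near 1 of the 2 BcatGOF libraries. For the 38 listed members the median log2 ratio of FPKM over the mesenchyme-only mean was -0.26 in BcatGOF replicate 1, -1.81 in replicate 2 and -0.83 for the mean of both, and the median in the authors' deposited table was -1.90. For Mki67 the log2 ratio of FPKM was 0.39 in replicate 1 and -2.64 in replicate 2, against -2.99 in the authors' deposited table. For Aurka it was -0.45 in replicate 1 and 1.02 in replicate 2, against 1.17 in the authors' deposited table. Only listed members could be set side by side. The authors' deposited table holds no adjusted p above 0.015 and no absolute log2 fold change under 0.539, so its fold changes are large by selection. Which libraries entered the authors' comparison is not stated by any label or file.

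**Figure D4:**
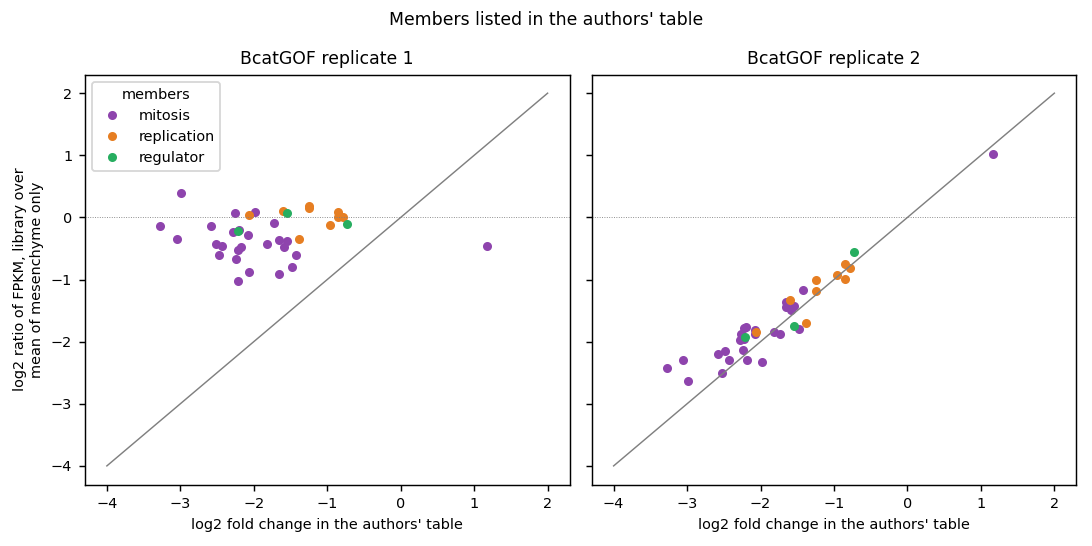
Log2 ratio of FPKM in 1 BcatGOF library over the mean of mesenchyme only (vertical axis) against the log2 fold change in the authors' deposited table (horizontal axis) for the 38 listed members; left, BcatGOF replicate 1, right, replicate 2; the grey diagonal marks equal values. Points follow the diagonal for replicate 2 (median -1.81 against -1.90 in the table) and lie above it for replicate 1 (median -0.26), except Aurka.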

How the data were processed

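Poly-A RNA of sorted stromal cells was sequenced in 8 libraries: 2 of BcatGOF coculture, 3 of WT coculture and 3 of mesenchyme only. The authors deposited FPKM per library for 24930 genes, with no source that says how they computed them. The authors' deposited table of BcatGOF coculture over mesenchyme only gives log2 fold changes with standard errors, in which positive values mean higher in BcatGOF coculture. It also gives the authors' p-value and adjusted p-value, a test statistic (a score with no fixed range, as deposited) and the mean normalized count, a signal averaged by the authors over libraries that are not named. Per the submitters' processing notes, mm9, DESeq2 1.40.1 and kallisto 0.46.1 were used, in roles the notes leave out. No counts were used, so absolute depth is unknown and only the number of libraries and the replicate spread set the precision. P-values measure the spread between libraries, since nothing says that these came from separate mice.

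Genes at 1 FPKM or more in at least 2 libraries were kept (12927, 47 of the 48 members). Group means of log2(FPKM + 1) were fitted in limma 3.58.1 (R 4.3.3) over all 8 libraries with trend and robust options and 5 residual degrees of freedom, and p-values, two-sided, were adjusted by Benjamini-Hochberg over all tested genes with a threshold of 0.05. Lists were described by counts and medians, with no test over a list. The members and lists were chosen with earlier results of these data known. Values in every library are given for 12 chosen members, for the 2 most abundant replication and mitosis members, and for the 3 of each with the largest log2 fold change in BcatGOF coculture over mesenchyme only; further genes were named after their values were seen. Of each other list the 2 most abundant members are given.

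Deviations from group means correlated at 0.301 to 0.554 between same-numbered libraries of different groups (7 pairs). Between other libraries they correlated at -0.483 to 0.208 (14 pairs). Deviations within a group cancel, so the BcatGOF libraries mirror each other and the 14 pairs are not independent of the 7. The library names also share a prefix per number, without saying what it marks, so the numbers were taken to pair the libraries. Alternatives were a replicate block, leaving out each library, median-ratio scaling, quantile normalization, plain variances, pseudocounts of 0.1 and 0.5, a mean of at least 5 FPKM as the filter, and all genes unfiltered. Promoter windows came from RefSeq (GRCm38.p6) by symbol, and gene overlaps from GENCODE vM21 on GRCm38. Python 3.11.15 with matplotlib 3.10.9 made the plots. The values of 1 marker gene are not reported here.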

Additional observations from a re-analysis of the deposited data

How the results depend on the processing

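With 2 or 3 libraries per group and replicates of BcatGOF that differ this much, what passes depends on which library is used. Genes passing over all genes numbered 6 for BcatGOF coculture over mesenchyme only and 4 for BcatGOF over WT coculture with no filter. With a filter at a mean of 5 FPKM, 0 passed for BcatGOF coculture and 0 for WT coculture over mesenchyme only. With the replicate block 2 passed for WT coculture over mesenchyme only. Leaving out 1 library gave 1 to 198 genes for BcatGOF coculture over mesenchyme only, 0 for BcatGOF over WT coculture and 1 to 9 for WT coculture over mesenchyme only.

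Leaving out 1 library gave medians for BcatGOF coculture over mesenchyme only of -1.15 to -0.33 (mitosis members) and -0.67 to 0.064 (replication members), for BcatGOF over WT coculture of -1.18 to -0.28 and -0.87 to -0.10, and for WT coculture over mesenchyme only of -0.19 to 0.17 and 0.01 to 0.27. The ends of the first 4 ranges came from leaving out a BcatGOF library. The replicate block gave medians of -0.80 and -0.41 over mesenchyme only and -0.80 and -0.55 over WT coculture for mitosis and replication members of BcatGOF coculture, and called no member. A pseudocount of 0.1 gave -1.01 for the mitosis members over mesenchyme only. Other settings kept the sign of these medians, apart from the mitosis median of WT coculture, which was 0.01 under quantile normalization. Single members changed sign in 1, 3 and 7 of 361 values each for BcatGOF over mesenchyme only, BcatGOF over WT and WT over mesenchyme only when no library was left out, and in 20, 14 and 55 of 374 when one was. The causes were not tested.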
